A study of Mus musculus with 6 samples.

Results

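Transforming growth factor beta (TGF-beta) signalling in long-term hematopoietic stem cells (LT-HSCs) was described through 10 genes that encode the ligand, the proteins that hold its latent form on a cell, the receptors, the receptor-activated SMAD3 and the feedback inhibitors. The genes are Tgfb1, Nrros, Lrrc32, Tgfbr1, Tgfbr2, Tgfbr3, Smad3, Smad7, Skil and Pmepa1, taken by their GENCODE M21 symbols from the 55450 genes of the deposited library tables. All 10 symbols matched, and all 10 genes were among the 15610 that passed the filter on low counts. The 6 libraries are bulk RNA-seq of LT-HSCs sorted as Lin-, Sca1+, cKit+, CD48- and CD150+ of old wild-type (WT) C57/Bl6 males (22 to 24 months), with no treatment named in the labels. From each of 3 mice there is 1 library of the CD61High gate, which took the upper 10% of LT-HSCs by surface CD61, and 1 of the CD61Low gate, which took the lower 10%, at 5000 cells per sort. The titles give each library 1 mouse, whereas the protocol mentions pools of LT-HSCs, and the gates come from old males alone, without a young group.

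TGF-beta 1 is secreted in a latent complex, in which its own propeptide keeps the cytokine from its receptors. Integrins that contain alpha V, including the alpha V beta 3 pair of which CD61 is the beta chain, can bind an Arg-Gly-Asp motif in that propeptide, and the transmembrane proteins encoded by Lrrc32 and Nrros can hold the complex at a cell surface. Released TGF-beta joins the type II and type I receptors, which phosphorylate SMAD2 and SMAD3, and in the bone marrow this pathway is known for its part in stem cell quiescence.

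Total counts on genes were 21354130 to 26398090 per library, and both libraries of mouse 2 stood apart from the other 4. The 11 neutrophil markers summed to 75980 and 148300 CPM (gene counts scaled to an equal library total) in CD61High and CD61Low of mouse 2, to 4744 and 19240 CPM in mouse 1 and to 222 and 1495 CPM in mouse 3. CPM are adjusted throughout with edgeR's trimmed mean of M values (TMM). All 11 were lower in CD61High than in CD61Low in each mouse. The 9 LT-HSC markers, among them Hlf, Procr and Fgd5, were all detected in every library. They summed to 1622 and 1269 CPM in CD61High and CD61Low of mouse 2, against 2694 to 3952 CPM in the other libraries. Kit was the largest single part of each sum, at 576 to 1965 CPM. Of the 9 LT-HSC markers, 5 were lower in CD61High in 3 of 3 mice and 0 were higher in 3 of 3. Monocyte markers (7 genes) summed to 1417 and 2681 CPM in mouse 2, to 111 and 504 CPM in mouse 1 and to 9.93 and 38.8 CPM in mouse 3. B lineage (7) and T and NK (6) markers summed to 304 and 501 CPM and to 253 and 372 CPM in mouse 2, against 46.4 to 180.1 CPM and 82.4 to 134 CPM in the others, and the 6 erythroid genes to 15310 and 32190 CPM, against 2622 to 4249 CPM. The 5 endothelial genes, several of which LT-HSCs also express, ranged from 108 to 271 CPM, with the defining gene Cdh5 at 0.109 to 1.53 CPM. The 8 megakaryocyte and platelet markers summed to 733 to 1008 CPM in CD61High and 179 to 290 CPM in CD61Low. Itga2b alone gave 393 to 666 CPM of the sums in CD61High. Of the 8 markers, 6 were higher in CD61High in 3 of 3 mice. The exceptions were Tubb1, lower in CD61High in mice 1 and 3, and Gp6, with 0 reads in CD61High of mice 1 and 3. In bulk samples such as these, fewer cells of a type and less RNA per cell cannot be told apart.

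None of the 10 genes passed the test between the gates. EdgeR's quasi-likelihood test without a block called 0 of 10 at an adjusted p under 0.05, where it called 0 of 15610 genes (0%), and 2 of 10 had an unadjusted p under 0.05, against 6.55% of all genes. With the mouse as a block it again called 0 of 10, where the share over all genes was 0.256%, and 4 of 10 had an unadjusted p under 0.05, against 20.8% of all genes. DESeq2 and limma voom without a block, which called 1.52% and 0% of all genes, also called 0 of 10. The median log2 fold change of the 10 genes, as CD61High minus CD61Low, was -0.20, against -0.05 over all genes tested. In 3 of 10 genes the CPM of the 2 gates did not overlap, 1 higher and 2 lower in CD61High, against 14.3% of all genes (8.62% higher and 5.71% lower). The difference had the same sign in 3 mice for 5 of 10 genes, against 45.3% of all genes. With 10 genes, nothing particular to the members is read from these shares, and they are described by their values.

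**Figure D1:**
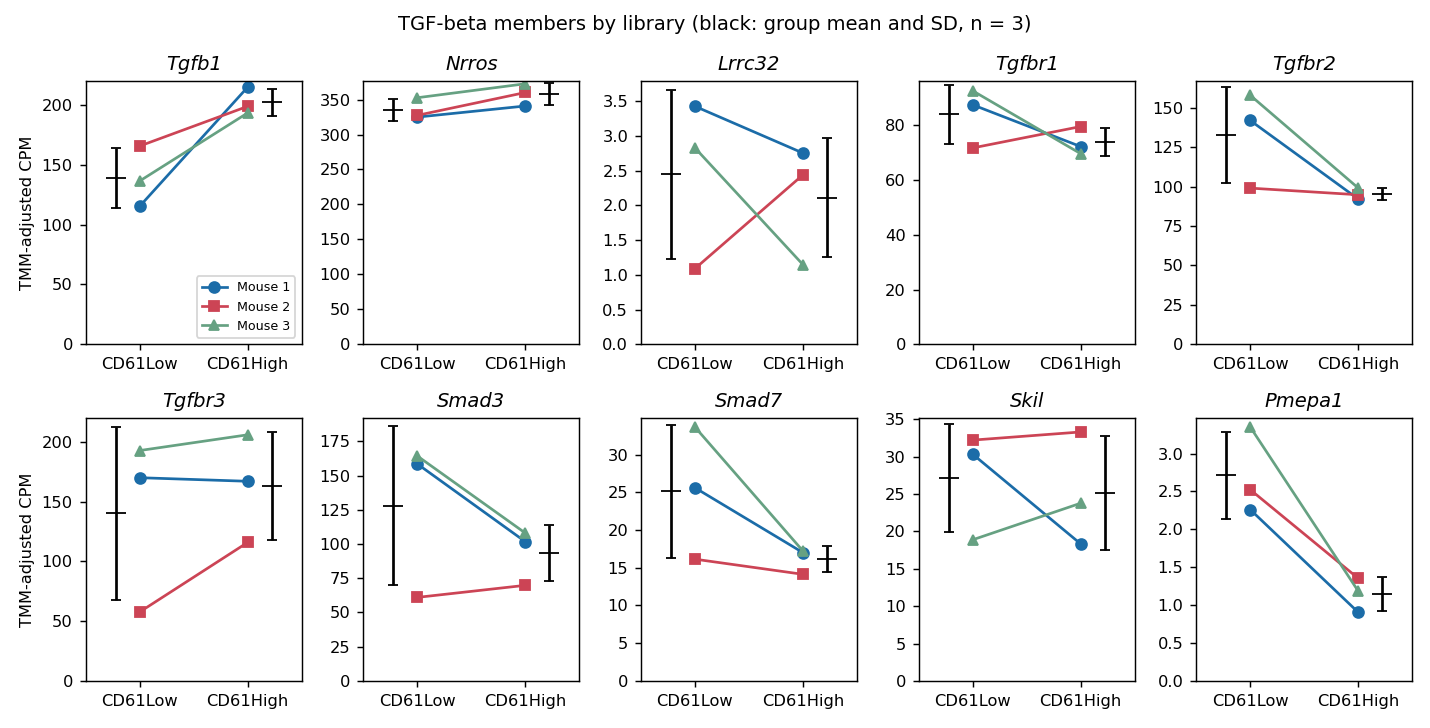
Expression of each member in the 6 libraries in TMM-adjusted CPM on linear axes from 0, with lines joining the 2 libraries of a mouse and black marks giving the group mean and SD (n = 3). The gates do not overlap for Tgfb1, Pmepa1 and, by a small margin, Tgfbr2, and both libraries of mouse 2 lie below the other 4 for Tgfbr3, Smad3 and Smad7.

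Tgfb1 (ENSMUSG00000002603.15, GRCm38 chromosome 7, 25687002 to 25705077), which encodes the ligand, was measured at 215, 199 and 194 CPM in CD61High of mice 1, 2 and 3 and at 115, 166 and 137 CPM in CD61Low. Every CD61High library lay above every CD61Low library, also with relative log expression (RLE) factors or library sizes alone. The means were 203 ± 11.2 CPM (SD, n = 3) and 139 ± 25.4 CPM, and the log2 difference was 0.90, 0.26 and 0.50 in mice 1, 2 and 3. The log2 fold change was 0.54 (SE 0.17, adjusted p = 0.683) without the block and 0.56 (SE 0.16, adjusted p = 0.129) with it in edgeR. DESeq2 with the block, which called 10.0% of all genes, called Tgfb1 as higher in CD61High at 0.53 (SE 0.19, adjusted p = 0.0435). Beside this difference, the sum of neutrophil markers was lower and that of megakaryocyte markers higher in CD61High in each mouse. In mouse 1 these were 4744 against 19240 CPM and 796 against 179 CPM, and Itga2b gave 516 of the 796 CPM. The part of these markers in the difference was not tested. In mouse 2, whose neutrophil sum was the largest, the mean of Tgfb1 was 1.10 times that of mice 1 and 3 with TMM factors. This ratio depended on the scaling. With library sizes alone, Tgfb1 had 184.5 and 127.3 CPM in CD61High and CD61Low of mouse 2. It had 234.6 and 123.8 CPM in mouse 1 and 209.8 and 151.7 CPM in mouse 3.

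Of the proteins that hold latent TGF-beta, the Nrros product, also called LRRC33, is the myeloid tether, while the Lrrc32 product, also called GARP, is known from regulatory T cells and platelets. Nrros (ENSMUSG00000052384.14, chromosome 16, 32142785 to 32165594) had 341, 360.1 and 373 CPM in CD61High of mice 1, 2 and 3 and 325, 327 and 353 CPM in CD61Low. With TMM factors it had the narrowest spread of the 10 genes over the 6 libraries, relative to its level. The log2 difference was 0.07, 0.14 and 0.08 in the 3 mice, with overlapping gates. With library sizes alone, Nrros ran from 251 to 404 CPM, with both libraries of mouse 2 lowest. Its log2 fold change was 0.10 (SE 0.13, adjusted p = 0.940) without the block in edgeR. The mean of Nrros in mouse 2 was 0.988 times that of mice 1 and 3 with TMM factors. The sums of neutrophil and monocyte markers were higher in mouse 2, and their part in the level of Nrros was not tested.

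Lrrc32 (ENSMUSG00000090958.2, chromosome 7, 98489283 to 98502181) was low, with 64, 56 and 31 reads in CD61High of mice 1, 2 and 3 and 94, 22 and 76 in CD61Low. These are 2.75, 2.44 and 1.14 CPM against 3.43, 1.09 and 2.83 CPM. The order of the gates turned from mouse to mouse, at log2 -0.31, 1.11 and -1.25, and edgeR gave a log2 fold change of -0.22 (SE 0.58, adjusted p = 0.948). Of the 4 regulatory T cell markers, Foxp3 had 0 to 2.23 CPM, and the sum of the list ranged from 7.63 to 18.1 CPM, of which Ikzf4, also expressed in other cells, gave 3.79 to 14.3 CPM. Per kilobase of merged exons, Nrros exceeded Lrrc32 by 106 to 365 times in the 6 libraries.

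Among the receptors, Tgfbr2 encodes the type II receptor, which binds the ligand directly, and Tgfbr1 the type I kinase that it activates. Tgfbr2 (ENSMUSG00000032440.13, chromosome 9, 116084293 to 116175360) had 92.2, 94.9 and 99.1 CPM in CD61High of mice 1, 2 and 3 and 142, 99.1 and 158 CPM in CD61Low. CD61Low was higher by a wide margin in mice 1 and 3 and by little in mouse 2, where the log2 difference was -0.06, against -0.62 and -0.67. The gates did not overlap with TMM or RLE factors and overlapped with library sizes alone. Under that last scaling CD61High of mouse 2 was the higher of its 2 libraries, at 87.9 against 76.1 CPM. The log2 fold change was -0.48 (SE 0.20, adjusted p = 0.752) without the block in edgeR and -0.45 (SE 0.16, adjusted p = 0.194) with it. Without mouse 2 the blocked fit, which then called 4.77% of all genes, called Tgfbr2 as lower in CD61High at -0.66 (SE 0.11, adjusted p = 0.0428).

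Tgfbr1 (ENSMUSG00000007613.15, chromosome 4, 47353222 to 47414931) was close in the 2 gates, at 72.3, 79.6 and 69.7 CPM in CD61High of mice 1, 2 and 3 and 87.6, 71.8 and 92.7 CPM in CD61Low. Its log2 difference was -0.28, 0.15 and -0.41, and the log2 fold change in edgeR was -0.19 (SE 0.16, adjusted p = 0.897). Tgfbr3 (ENSMUSG00000029287.14, chromosome 5, 107106570 to 107289629) encodes betaglycan, a co-receptor that presents ligand to the type II receptor. It had 167, 116 and 206 CPM in CD61High of mice 1, 2 and 3 and 170.0, 57.6 and 193 CPM in CD61Low. The gates were alike in mice 1 and 3, at log2 differences of -0.03 and 0.10, and apart in mouse 2, at 1.01. The log2 fold change was 0.22 (SE 0.47, adjusted p = 0.943) without the block, and it was -0.15 without the CD61Low library of mouse 2. Tgfbr3 shares 4.54% of its exon sequence with Gm43422, and reads on the shared part were left out as ambiguous.

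The ligand and its type II receptor differed in opposite directions, so their levels per exon length were set against each other, a comparison chosen after the values were seen and given without a test. Tgfb1 exceeded Tgfbr2 by 3.79, 3.41 and 3.17 times in CD61High of mice 1, 2 and 3 and by 1.32, 2.72 and 1.40 times in CD61Low. This ratio was higher in CD61High in each mouse, and the gates did not overlap. With TMM factors each gene alone separated the gates, in opposite directions. That outcome of the ratio was therefore fixed by the values already given and adds no support to them. The ratio itself does not depend on the scaling between libraries. The 250 bases before the RefSeq start of each of these 2 genes (GRCm38.p6, plus strand for Tgfb1 and minus strand for Tgfbr2) are printed because this pair separated the gates. Capitals mark CCGCCC, the core of a GC box that SP1 can bind, and CAGAC, a sequence that SMAD proteins can bind, each on either strand.
Tgfb1 (chr7:25686752-25687001): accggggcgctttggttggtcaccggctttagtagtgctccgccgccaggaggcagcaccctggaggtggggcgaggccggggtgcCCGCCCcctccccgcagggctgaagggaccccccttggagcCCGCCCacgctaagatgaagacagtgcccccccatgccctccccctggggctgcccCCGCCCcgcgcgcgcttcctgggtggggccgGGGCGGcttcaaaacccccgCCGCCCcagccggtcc
Tgfbr2 (chr9:116175364-116175613): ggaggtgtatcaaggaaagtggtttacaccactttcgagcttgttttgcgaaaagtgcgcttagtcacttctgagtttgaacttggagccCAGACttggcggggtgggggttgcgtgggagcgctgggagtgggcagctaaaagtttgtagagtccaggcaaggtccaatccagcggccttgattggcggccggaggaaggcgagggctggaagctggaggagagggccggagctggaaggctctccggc
The Tgfb1 window was 75.2% G and C and held CCGCCC at 5 places and CAGAC at 0, and the Tgfbr2 window was 58.4% G and C with 0 and 1. Over all 32851 RefSeq windows of this length the median was 52.4% G and C, 32.7% held CCGCCC and 42.2% held CAGAC. The AP-1 motif TGANTCA, its own reverse complement apart from the free base, was in neither window and in 6.75% of all. These letters are a description of the windows and say nothing of binding in these cells. RefSeq windows were matched for 5 of the 10 genes.

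**Figure D2:**
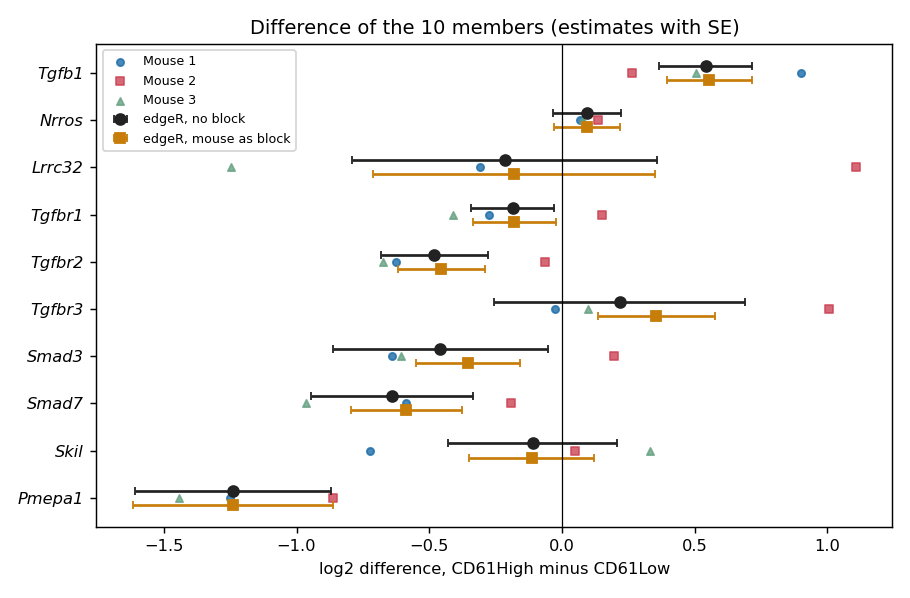
Log2 difference of each member (CD61High minus CD61Low) in each mouse, with edgeR's log2 fold change and its SE without and with the mouse as a block. Tgfb1 and Nrros lie above 0 in 3 of 3 mice and Tgfbr2, Smad7 and Pmepa1 below 0, while the sign of the other 5 members varies between mice.

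Smad3 (ENSMUSG00000032402.12, chromosome 9, 63646767 to 63757994) encodes the receptor-activated transcription factor of the pathway. It had 102, 69.8 and 108 CPM in CD61High of mice 1, 2 and 3 and 159, 61.0 and 164 CPM in CD61Low. CD61Low was higher in mice 1 and 3, at log2 differences of -0.64 and -0.60, and not in mouse 2, at 0.19. The log2 fold change was -0.46 (SE 0.41, adjusted p = 0.915) without the block in edgeR, with overlapping gates. Without mouse 2 and with the block, Smad3 was called as lower in CD61High at -0.64 (SE 0.11, adjusted p = 0.0460).

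The feedback inhibitors are genes that TGF-beta itself is known to induce in many cell types. SMAD7 blocks the type I receptor and PMEPA1 keeps receptor-activated SMADs from the receptor, while SKIL, also called SnoN, represses SMAD target genes in the nucleus. Pmepa1 (ENSMUSG00000038400.15, chromosome 2, 173224458 to 173276533) was the lowest of the 10 genes per exon length, with 21, 31 and 32 reads in CD61High of mice 1, 2 and 3 and 62, 51 and 90 in CD61Low. These are 0.904, 1.35 and 1.18 CPM against 2.26, 2.52 and 3.35 CPM, and the gates did not overlap under TMM, RLE factors or library sizes alone. The means were 1.15 ± 0.226 CPM (SD, n = 3) and 2.71 ± 0.569 CPM. The log2 difference was -1.25, -0.86 and -1.44, the furthest from 0 of the members on average. The log2 fold change of -1.24 (SE 0.37) had an adjusted p of 0.676 in edgeR without the block and 0.143 with it. Beside it, neutrophil markers and 5 of the 9 LT-HSC markers were lower in CD61High in each mouse. The part of these markers in the difference was not tested. The mean of Pmepa1 in mouse 2 was 1.01 times that of mice 1 and 3 with TMM factors. This ratio depended on the scaling. With library sizes alone, Pmepa1 had 1.25 and 1.94 CPM in CD61High and CD61Low of mouse 2. It had 0.984 and 2.43 CPM in mouse 1 and 1.28 and 3.72 CPM in mouse 3.

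Smad7 (ENSMUSG00000025880.11, chromosome 18, 75367529 to 75395935) had 17.0, 14.1 and 17.2 CPM in CD61High of mice 1, 2 and 3 and 25.6, 16.1 and 33.7 CPM in CD61Low. CD61High was lower in each mouse with TMM factors, by log2 differences of -0.59, -0.19 and -0.96. The gates overlapped through CD61Low of mouse 2 with TMM or library sizes alone, and not with RLE factors. With library sizes alone, CD61High of mouse 2 was the higher of its 2 libraries, at 13.1 against 12.4 CPM. EdgeR gave -0.64 (SE 0.31, adjusted p = 0.760) without the block and -0.59 (SE 0.21, adjusted p = 0.191) with it. Skil (ENSMUSG00000027660.16, chromosome 3, 31095058 to 31122577) had 18.3, 33.3 and 23.8 CPM in CD61High of mice 1, 2 and 3 and 30.4, 32.2 and 18.9 CPM in CD61Low. Its difference had no common direction, at log2 -0.72, 0.05 and 0.33, and its log2 fold change was -0.11 (SE 0.32, adjusted p = 0.952). Of the 3 inhibitors, Pmepa1 and Smad7 thus stood lower in CD61High in 3 of 3 mice with TMM factors and Skil did not, none of them past the test.

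Levels of different genes were compared per kilobase of merged exons, as means over the 6 libraries. Nrros was highest at 82.9 CPM per kilobase, followed by Tgfb1 at 33.9, Tgfbr3 at 23.1, Smad3 at 20.0, Tgfbr2 at 14.0 and Tgfbr1 at 12.1. Smad7 at 4.56 and Skil at 2.697 were lower, and Lrrc32 at 0.487 and Pmepa1 at 0.393 were lowest. The ranges over libraries were separate between Nrros and Tgfb1, between Tgfbr1 and Smad7 and between Skil and Lrrc32. The other neighbours in this order overlapped, and Tgfbr3 exceeded Smad3 in 3 of 6 libraries. Tgfbr2 exceeded Tgfbr1 in 5 of 6 libraries, and their ratio ranged from 0.952 to 1.36.

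**Figure D3:**
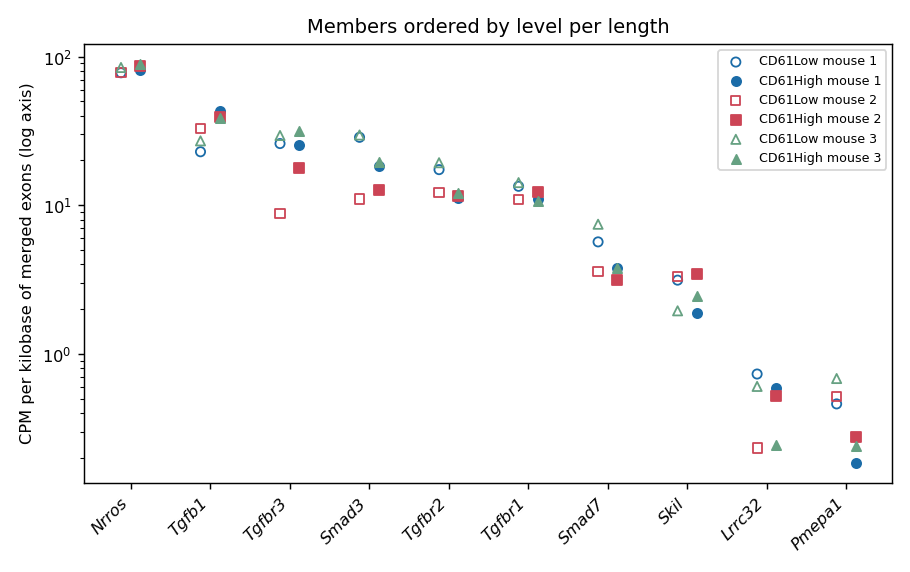
Level of each member in CPM per kilobase of merged exons on a log axis, ordered by the mean over 6 libraries, with open symbols for CD61Low and filled symbols for CD61High. Nrros lies above the other 9 members in every library, and Lrrc32 and Pmepa1 lie below 1 in every library.

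For some members, mouse 2 stood apart from the other mice in both gates. With TMM factors, both libraries of mouse 2 lay below the other 4 for 3 of 10 members, namely Tgfbr3, Smad3 and Smad7. The share was 26.3% of all genes, and 8 of the 9 LT-HSC markers. This depended on the scaling. With library sizes alone it also held for Nrros, Tgfbr1 and Tgfbr2, and with RLE factors it did not hold for Smad7. The ratios that follow are of TMM-adjusted CPM. The mean of mouse 2 was 0.472 times that of mice 1 and 3 for Tgfbr3, 0.491 times for Smad3 and 0.648 times for Smad7. It was 0.940 times for Tgfbr1, 0.790 times for Tgfbr2 and 1.43 times for Skil. Among the LT-HSC markers the same ratio was 0.337 for Hlf and 0.331 for Procr, and among neutrophil markers 18.1 for Ngp. The part of the differing marker levels in these ratios was not tested.

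**Figure D4:**
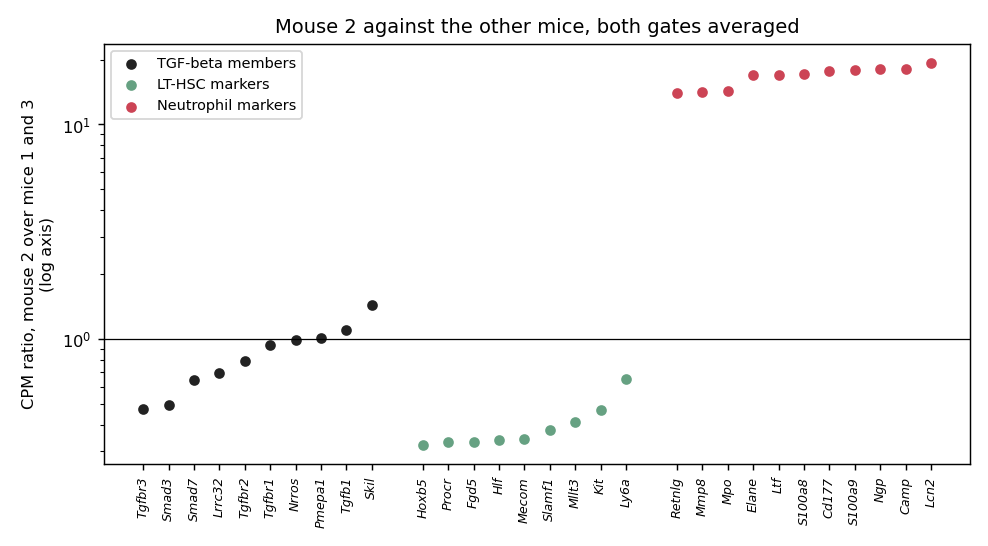
Ratio of the mean TMM-adjusted CPM of the 2 libraries of mouse 2 to the mean of the 4 libraries of mice 1 and 3. The log axis holds the 10 members, the 9 LT-HSC markers and 11 neutrophil markers. The LT-HSC markers range from 0.320 for Hoxb5 to 0.649 for Ly6a. Tgfbr3, Smad3 and Smad7 lie within that range through Ly6a alone, above every other LT-HSC marker (next highest Kit at 0.469). The other 7 members lie above the range.

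Of 77 further genes of the pathway, listed by role from general knowledge, 64 passed the filter on low counts. EdgeR called 0 of 64 without the block and 0 of 64 with it, against 0% and 0.256% of all genes. An unadjusted p under 0.05 was found for 2 of 64 without the block and 18 of 64 with it, against 6.55% and 20.8% of all genes. Without a block, DESeq2 called 1, Junb, and limma voom 0. Their median log2 fold change was -0.36, against -0.05 over all genes, and 46 of 64 were below 0, against 54.6% of all genes. The difference was lower in CD61High in 3 of 3 mice for 23 of 64 and higher for 7, against 24.7% and 20.6% of all genes. The CPM of the gates did not overlap for 4 of 64, 1 higher and 3 lower in CD61High, against 14.3% of all genes. The examples below are the 3 genes of each role with the smallest unadjusted p in the blocked fit, together with Itgb3 and Itgav, and log2 fold changes are given from that fit.

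Of the 7 other ligands, 4 were tested. Gdf11, an activin-like ligand, had 0.861, 0.349 and 0.849 CPM in CD61High of mice 1, 2 and 3 and 1.90, 0.940 and 2.16 CPM in CD61Low, with a log2 fold change of -1.29 (SE 0.44, adjusted p = 0.176). Inhba and Inha, subunits of activins and inhibins, were at -0.24 and 0.62 with adjusted p of 0.581 and 0.607. Inhba had 20.8 and 32.9 CPM in CD61High and CD61Low of mouse 2, where its mean was 3.90 times that of mice 1 and 3. Of the 9 tested genes of latent storage and matrix, Ltbp4, a latent TGF-beta binding protein, had 47.1, 12.5 and 32.0 CPM in CD61High of mice 1, 2 and 3 and 81.1, 22.4 and 108 CPM in CD61Low. It was lower in CD61High in each mouse, with a log2 fold change of -1.13 (SE 0.22, adjusted p = 0.0759), and its mean in mouse 2 was 0.260 times that of mice 1 and 3. Bgn, a proteoglycan that binds TGF-beta, was at -0.60 (adjusted p = 0.162). Emilin1, a matrix protein that binds the TGF-beta precursor, was at 0.46 (adjusted p = 0.213).

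Of the 10 tested activators, Furin, the protease that cuts the TGF-beta precursor, had 95.6, 95.4 and 118 CPM in CD61High of mice 1, 2 and 3 and 165, 129 and 201 CPM in CD61Low. The gates did not overlap, and Furin was at -0.67 (SE 0.14, adjusted p = 0.0775) with the block, whereas DESeq2 with the block called it as lower at an adjusted p of 0.00125. Mmp14, a membrane protease that can release TGF-beta, was higher in CD61High in each mouse, at 0.49 (SE 0.15, adjusted p = 0.143). Mmp9, a protease of neutrophil granules, was at -1.72 (adjusted p = 0.0767), with 1781 and 3053 CPM in CD61High and CD61Low of mouse 2 and 7.24 and 36.2 CPM in mouse 3, beside neutrophil sums of 75980 and 148300 CPM and of 222 and 1495 CPM. The part of neutrophil RNA in this difference was not tested. The integrin chains Itgav and Itgb3, whose alpha V beta 3 pair can bind the latent complex, were at -0.59 (adjusted p = 0.262) and -0.32 (adjusted p = 0.334).

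Of the 9 tested receptors and co-receptors, Acvrl1, the type I receptor ALK1, was at -1.40 (adjusted p = 0.0761), with 36.3 and 64.5 CPM in CD61High and CD61Low of mouse 2 and 0.665 and 1.79 CPM in mouse 3. Its mean in mouse 2 was 11.1 times that of mice 1 and 3, beside the higher neutrophil sums of mouse 2, whose part in these values was not tested. Acvr2a, an activin receptor, and Zfyve9, the SMAD anchor SARA, were at -0.56 and -1.29, with adjusted p of 0.206 and 0.201. Of the 18 tested SMAD partners and regulators, the corepressor Ski was at -0.92 (adjusted p = 0.254), and the ubiquitin ligases Nedd4l and Trim33 were at -0.39 and -0.43 (adjusted p = 0.235 and 0.221). Ski, Nedd4l and Trim33 were each lower in CD61High in 3 of 3 mice. The 4 genes of the TAK1 kinase branch were all tested and had a median of -0.06 with the block, with Tab1, Tab2 and Traf6 at 0.23, -0.40 and -0.11 and adjusted p of 0.421, 0.427 and 0.784.

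Of 15 genes known as TGF-beta targets, 10 were tested. Without the block, 9 of the 10 had a log2 fold change below 0, against 54.6% of all genes and 46 of the 64 pathway genes. The difference was lower in CD61High in 3 of 3 mice for 5 of the 10, against 24.7% of all genes. With 10 genes, nothing particular to the targets is read from these shares. Junb, an AP-1 subunit that many other signals also induce, had 295, 464 and 246.5 CPM in CD61High of mice 1, 2 and 3 and 699, 807 and 705 CPM in CD61Low. The gates did not overlap, and the log2 fold change was -1.19 (SE 0.18, adjusted p = 0.0543) with the block. Junb shares 7.52% of its exon sequence with Prdx2. Without mouse 2, edgeR called Junb with and without the block, at adjusted p of 0.0175 and 0.0483, where the unblocked fit called 0.855% of all genes. Tgfbi, an extracellular matrix protein that monocytes also express, stood lower in CD61High in 3 of 3 mice, at -0.96 (SE 0.13, adjusted p = 0.0512), with 175 and 331 CPM in CD61High and CD61Low of mouse 2 and 40.7 and 72.9 CPM in mouse 3. Monocyte markers summed to 1417 and 2681 CPM and to 9.93 and 38.8 CPM in those libraries, and their part in the difference was not tested. Tgm2, a transglutaminase, was at -0.65 (SE 0.20, adjusted p = 0.143). It shares 21.8% of its exon sequence with other genes, where reads were left out as ambiguous. Without mouse 2, the blocked fit called 6 of the pathway genes as lower in CD61High, namely Junb, Tgfbi, Tgm2, Furin, Mmp9 and Itgav, where it called 2.93% of all genes as lower.

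**Figure D5:**
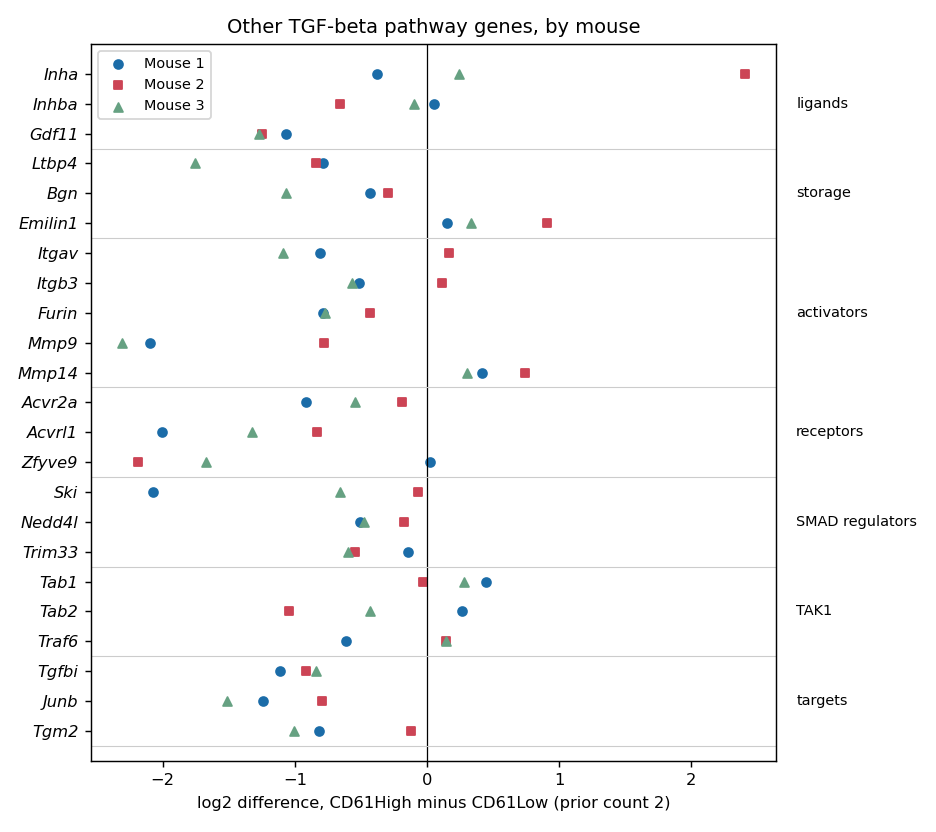
Log2 difference (CD61High minus CD61Low, prior count 2) of the named pathway genes in mice 1, 2 and 3, grouped by role. Gdf11, Ltbp4, Bgn, Furin, Mmp9, Acvr2a, Acvrl1, Ski, Nedd4l, Trim33, Tgfbi, Junb and Tgm2 lie below 0 in all 3 mice, Mmp14 and Emilin1 lie above 0, and the other genes vary in sign, with Itgav and Itgb3 above 0 in mouse 2 alone.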

How the data were processed

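Bulk RNA-seq of 3 CD61High and 3 CD61Low libraries was analysed. Per the labels' protocols, SMART-Seq v4 cDNA (4 ng of total RNA) went into Nextera XT libraries (1 ng of cDNA). The deposited values are raw counts of reads per gene, made by the authors with STAR 2.7 per the submitters' processing notes, which also name MultiQC and edgeR. Genome build and annotation were not given in the sources used here. All 55450 gene identifiers are those of GENCODE M21 on GRCm38, which supplied symbols, coordinates and merged exon lengths. The counts without strand were used, since 49.9% to 50.0% of stranded counts fell on the first strand. Lines that name no gene were left out: they held 4.36% to 10.9% (unmapped) of a library's reads, multimapping 10.0% to 15.6%, outside genes 2.88% to 4.21% and ambiguous 3.55% to 4.37%. A count of 0 allows up to 3 counts, or 0.109 to 0.1485 TMM-adjusted CPM, counting error only.

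The test was edgeR's (version 4.0.16, R 4.3.3) robust quasi-likelihood F-test (TMM, filterByExpr by group, two-sided, Benjamini-Hochberg over 15610 genes, called at an adjusted p under 0.05), without a block as the design was set. SEs were derived from the F statistic, and log2 differences per mouse carry a prior count of 2. A second fit, blocked on the mouse number, is given beside it, since the titles give the same mouse to the 2 libraries of a number. Deviations from the group means correlated within a mouse at 0.236, 0.806 and 0.761 in mice 1, 2 and 3. Between unlike mice they correlated at -0.823 to 0.374. The value of 0.374, for CD61High of mouse 1 with CD61Low of mouse 3, exceeded that within mouse 1. Centring each gate on its mean pulls values between unlike mice down, so these correlations do not test the pairing. DESeq2 1.42.0, limma 3.58.1 (voom), other scaling, no filter and left-out libraries or mice were alternatives. No 2 libraries agreed within sampling noise. The members and the lists of pathway genes and markers were chosen with earlier results of these data known. Named were all members, any gene that edgeR called over all 6 libraries (none of the pathway lists) and the 3 genes per list with the smallest unadjusted p in the blocked fit, and Itgb3 and Itgav.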

Additional observations from a re-analysis of the deposited data

How the results depend on the processing

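Without the block, edgeR called 0 genes in all; with the mouse as a replicate block it called 40, with the block and RLE factors 88, and with the block and no filter on low counts 747. DESeq2 called 237 genes, or 1566 with the block, and limma voom with the block 333. Leaving out single libraries or mice without a block gave 0 to 133 genes (133 without mouse 2), and with the block 0 to 742 (742 without mouse 2, 7 without mouse 3). Of the 10 members, DESeq2 with the block called 1 (Tgfb1) and the block without mouse 2 called 2 (Tgfbr2 and Smad3). These fits called 10.0% and 4.77% of all genes. Leaving out libraries without a block called 0 members, and in edgeR the block changed no call of a member over all 6 libraries. Of the 64 other pathway genes tested, DESeq2 called 1 (Junb), or 8 with the block (Junb, Tgfbi, Mmp9, Ltbp4, Acvrl1, Furin, Tgm2 and Thbs1). It called 1.52% and 10.0% of all genes without and with the block. Limma voom with the block called 4 (Junb, Tgfbi, Mmp9 and Ltbp4), the block with RLE factors 1 (Tgfbi) and the block with no filter 5 (Junb, Tgfbi, Ltbp4, Acvrl1 and Furin). Each of these was lower in CD61High. Over all genes, these blocked fits also called more genes lower than higher. DESeq2 called 1110 lower and 456 higher, and limma voom 255 and 78. The numbers were 63 and 25 with RLE factors and 498 and 249 with no filter. Without the block, DESeq2 called 108 lower and 129 higher. The count of pathway genes called was 0 to 1 when libraries or mice were left out without a block (Junb, without mouse 2). With the block it was 6 without mouse 2.

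Tgfb1, Nrros, Tgfbr1, Tgfbr2, Smad3, Smad7 and Pmepa1 kept their direction in all 23 alternatives. Leaving out libraries or mice, without a block, moved Lrrc32 between -0.71 and 0.17, Tgfbr3 between -0.15 and 0.46 and Skil between -0.37 and 0.18. With the block, Lrrc32 was at 0.38 without mouse 3 and Skil at 0.19 without mouse 1. Among named pathway genes the ranges crossed 0 for Inhba (-1.19 to 0.73), Inha (-0.26 to 0.63), Mmp9 (-4.08 to 1.04), Acvrl1 (-3.81 to 0.88) and Traf6 (-0.29 to 0.13); with the block Inha was at -0.075 without mouse 2 and Traf6 at 0.14 without mouse 1. The cause of these turns was not tested. Lrrc32 and Pmepa1 rest on 21 to 94 reads per library, which limits their precision.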

Other observations

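Further values of the pathway stand outside the comparison. Of the TGF-beta isoforms, Tgfb3 had means of 7.77 and 8.13 CPM in CD61High and CD61Low, and Tgfb2, which did not pass the filter, had 0 to 6 reads per library. Per kilobase of merged exons, Tgfb1 exceeded Tgfb3 by 7.92 to 24.2 times. Cdkn2b, a cell cycle inhibitor that TGF-beta can induce, had 0 to 6 reads per library, so that no difference was detectable at this depth.

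Smad2 and Smad3, the 2 receptor-activated SMADs of the pathway, stood in different ratios between mice. Per kilobase, the ratio of Smad3 to Smad2 by mouse number was 1.61, 1.05 and 1.94 with high CD61 and 3.09, 0.957 and 2.85 with low CD61. The ratio was lowest in mouse 2 in both gates. Ltbp3, a latent TGF-beta binding protein, stood to Tgfb1 at 0.407, 0.182 and 0.404 with high CD61 and at 1.02, 0.205 and 1.07 with low CD61, again by mouse number. These ratios were chosen after the values were seen and were not tested.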
